A study of Rattus norvegicus with 192 samples.

Results

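Interferons are secreted proteins by which a cell that senses foreign or misplaced nucleic acid alerts its neighbours. They bind surface receptors whose Janus kinases activate transcription factors, among them STAT2 with IRF9, that switch on a shared set of genes that block viral replication, tag proteins with ISG15, cut peptides for antigen presentation and draw T cells. The genes are kept low in resting nervous tissue and are used as a readout of interferon signalling in any organ. A list of 39 of them was followed here in rats that had inhaled phosphine (PH3), a toxic fumigant gas that interferes with mitochondrial respiration. For 35 of the 39 genes, 41 of the 31042 probe sets tested named that gene and no other, and the brightest probe set of a gene in a tissue stood for it. Gbp5, Irf8, Oasl2 and Xaf1 were not analysed here. The sensor RIG-I, listed as Ddx58, was found under its annotated name Rig1.

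All rats were male Sprague-Dawley animals of 300 to 400 g. PH3 rats breathed 660 ppm for 25 min in whole-body exposure, a product of 16500 ppm × min or 0.71 times the median lethal product, and Air rats breathed no phosphine (0 ppm). Olfactory bulb, brain stem, heart, kidney, lung and blood were taken 1, 3, 6 or 24 h later. The arrays fall into 48 groups of 3 to 5 rats (most have 4) from 59 rat numbers, and each time has its own Air group. The values are log2 levels after robust multi-array averaging (RMA), so a difference of 1 is a doubling. In these bulk samples, fewer cells of a type and less RNA per cell cannot be told apart.

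The tissue labels were checked against defining genes. The lowest array of each tissue lay above the highest array of any other tissue in the mean of its own markers. The margin was widest for lung surfactant and airway genes (at least 13.1 in lung and at most 7.25 elsewhere) and narrowest for brain stem (2 of 4 markers measured, at least 9.05 and at most 8.18, in olfactory bulb). An index of RNA truncation was taken from the array's controls for Gapdh and beta-actin, as the log2 excess of the 3′ end over the 5′ end. It separated the groups of lung at 3 h, where Air arrays had 0.343 to 0.521 and PH3 arrays 0.095 to 0.247. One olfactory bulb array, PH3 Rat508 of 1 h, stood apart from the rest in the genes described here, and the results of the bulb at 1 and 24 h are given with and without it.

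Interferon-activated STAT and IRF complexes bind a sequence called the interferon-stimulated response element (ISRE), whose core was searched as GAAANNGAAA on either strand, in which N is any base. RefSeq promoters of 300 bases (250 before and 50 after the transcript start, GRCr8) were listed for 32 of the 39 genes. The core was present in 18 of these 32 (56.2%), against 1312 of all 33469 promoters (3.92%). The core TTCNNNGAA of the gamma-activated site, another interferon-responsive sequence, was present in 10 of the 32 (31.2%) and in 8.87% of all promoters, and it overlapped an ISRE core in 1 of them. Among the genes measured, 10 of those with a listed promoter had all 4 PH3 olfactory bulbs of 24 h above all 4 Air bulbs, and 6 of these 10 held the ISRE core. The core was also present in 9 of the 18 whose groups overlapped. These 6 stretches are shown because their genes carry the 24 h pattern described next, and that of Bst2 because it is the gene called in lung. Capitals mark the ISRE core on the strand as printed, 5′ to 3′, so that a match on the other strand appears as TTTCNNTTTC. A match is a description of the letters and was not tested as a binding site.
Cxcl10 (chr14:15988816-15988852, plus strand): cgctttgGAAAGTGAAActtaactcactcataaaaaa
Ifit3 (chr1:241527262-241527311, plus strand): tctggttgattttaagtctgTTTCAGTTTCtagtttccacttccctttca
Rsad2 (chr6:48788238-48788287, minus strand): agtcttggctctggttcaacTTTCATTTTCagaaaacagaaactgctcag
Oas1a (chr12:41330405-41330460, plus strand): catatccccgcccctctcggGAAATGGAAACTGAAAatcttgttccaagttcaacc
Irf7 (chr1:205800063-205800112, minus strand): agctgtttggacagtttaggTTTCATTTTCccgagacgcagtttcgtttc
Gbp2 (chr2:234005676-234005725, plus strand): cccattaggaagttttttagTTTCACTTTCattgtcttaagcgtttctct
Bst2 (chr16:18255063-18255118, minus strand): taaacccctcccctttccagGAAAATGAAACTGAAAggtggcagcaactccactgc
In Oas1a and Bst2 the capitals hold 2 overlapping cores. The first match lies 31 bases before the transcript start in Gbp2, 41 in Oas1a, 44 in Ifit3, 69 in Irf7, 131 in Bst2, 147 in Rsad2 and 243 in Cxcl10.

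In the olfactory bulb, the first relay of smell in the brain, the interferon response genes were higher in PH3 than in Air rats 24 h after exposure in 33 of 35 cases, with a median difference of 0.42 against -0.005 over all probe sets. None of the 35 passed an adjusted p of 0.05 in limma across the 8 groups of the tissue, and neither did any other probe set (0% of 31042 called). At an unadjusted p under 0.05, 17 of the 35 were higher and none was lower, and 2.03% of all probe sets were higher at that p. In 16 of the 35 all 4 PH3 bulbs lay above all 4 Air bulbs, a pattern held by 1.73% of all probe sets.

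Cxcl10 encodes a chemokine that draws activated T cells and had the largest difference of the 35. Its level in the 4 PH3 bulbs of 24 h was 7.83 in Rat475, 6.50 in Rat476, 6.47 in Rat488 and 5.80 in Rat489, and in the 4 Air bulbs it was 4.53, 4.53, 4.32 and 4.37. Every PH3 rat was above every Air rat. The difference was 2.22 ± 0.533 (SE, 4 against 4 rats), a 4.64-fold higher level.
Among the antiviral effectors, which act on the virus itself, Mx1 and Ifit3 had the largest differences. Mx1, a GTPase that traps viral nucleocapsids, measured 6.77, 5.15, 6.01 and 5.21 in PH3 Rat475, Rat476, Rat488 and Rat489, against 3.86 to 4.38 in Air, a difference of 1.69 ± 0.455 (3.23-fold). Ifit3, which takes part in binding foreign RNA, measured 6.14, 4.64, 5.45 and 4.35 against 3.38 to 3.77, a difference of 1.62 ± 0.434 (3.08-fold). Rsad2, whose enzyme viperin makes a chain-terminating nucleotide, measured 9.22, 7.66, 8.11 and 7.81 against 6.93 to 7.33, a difference of 1.12 ± 0.365. In each of these 3 genes and in Cxcl10, Rat475 was the highest and the groups did not overlap. Of the 14 effectors measured, 13 were higher and 8 did not overlap, and the differences ranged from -0.06 in Oas1b to that of Mx1.

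Isg15, the ubiquitin-like tag that is joined to proteins during an interferon response, measured 8.50, 6.62, 7.35 and 6.52 in the PH3 bulbs in the same order of rats and 5.67 to 6.12 in Air, a difference of 1.36 ± 0.467 (2.56-fold). Its group of ubiquitin-like and ubiquitin modifiers was higher in 5 of 5 genes, and 2 of them (Isg15 and Usp18, the protease that removes the tag) did not overlap. Cxcl11, a chemokine for the same receptor as Cxcl10, measured 5.91, 5.01, 5.50 and 4.47 against 3.61 to 4.09, a difference of 1.28 ± 0.478. The third chemokine, Cxcl9, differed by -0.05. Both chemokines with a difference above 1 did not overlap between the groups, while Cxcl9 was 2.94 to 3.54 in PH3 and 3.11 to 3.41 in Air.

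The 4 transcription factors measured were all higher, by a median of 0.39. Irf7, which amplifies interferon production, had the largest difference of them, 1.06 ± 0.364, and was the one whose groups did not overlap. The 3 sensors of viral RNA were higher by 0.25 to 0.55, without overlap in Ddx58 and Dhx58. The antigen-processing genes Psmb8, Psmb9 and Tap1 were higher by 0.26 to 0.42 with overlap in all 3. For Oas1a, Rsad2, Gbp2 and Cxcl10 the 4 PH3 bulbs of 24 h also lay above the 17 Air bulbs of all times, as was so for 16 of all 31042 probe sets (0.0515%). The plot of all 35 genes at 24 h shows that the genes with filled symbols are spread over 6 of the 8 roles.

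**Figure D1:**
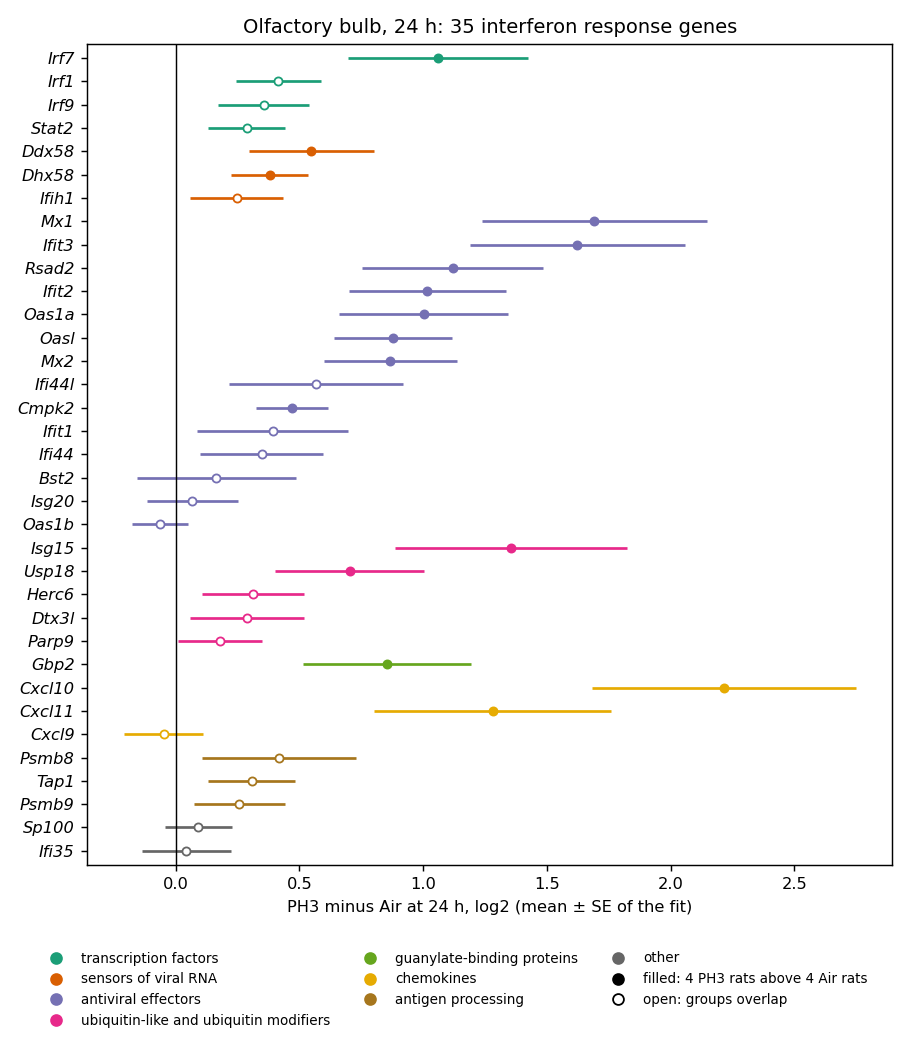
PH3 minus Air difference (log2) of 35 interferon response genes in the olfactory bulb at 24 h, grouped by role, with bars of ± 1 SE of the limma fit (4 against 4 rats). Filled symbols mark the 16 genes in which all 4 PH3 rats lay above all 4 Air rats. Cxcl10 has the largest difference, 2.22, and 2 genes, Cxcl9 and Oas1b, lie below 0.

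The adjusted p at 24 h depended on 1 array of another time, PH3 Rat508 of 1 h, because the fit takes its spread from all 33 bulbs. When this array was left out, an alternative added after its values were seen, the SE of Cxcl10 at 24 h was 0.291 in place of 0.533, and 4 probe sets passed (0.0129% of 31042). Of these 4, 3 were interferon response genes: Cxcl10 (adjusted p = 0.00109), Ifit2 (0.0284) and Ifit3 (0.0394). Mx1 had an adjusted p of 0.0503. When 1 of the 8 bulbs of 24 h was left out as well, 4 of the 35 genes passed without PH3 Rat476 or PH3 Rat489, among 5 of all 31042 probe sets. Without each of the others 1 of the 35 passed, among 1 or 2 of all probe sets. Cxcl10 passed in each of the 8 fits (adjusted p from 9.1e-05 to 0.0101). Rat508 was left out for its high levels in these same genes, which lowers their SE in particular. That genes of the list pass in the fits without it is thus partly set by that choice, and is not separate support. With the rat as a replicate block over the arrays of all tissues, 3 probe sets passed (0.00966%), of which Cxcl10 (adjusted p = 0.000333) and Rsad2 (0.0473) are of the list. With the groups of 24 h alone the smallest adjusted p was 0.63, and with the Air bulbs of all times as controls it was 0.0906.

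At 1 h the olfactory bulb differences came mainly from 1 rat. The median difference over the 35 genes was 0.37, with 34 of 35 positive and 15 higher at an unadjusted p under 0.05 (2.9% of all probe sets), but none passed the adjusted p of 0.05 (0.00322% of all probe sets did) and in none did the groups separate (0.609% of all probe sets). Without PH3 Rat508 none of the 35 was higher at an unadjusted p under 0.05, 28 were positive, and the median difference was 0.11. Cxcl10 was 8.61 in PH3 Rat508 and 4.49, 5.01 and 4.67 in PH3 Rat482, Rat483 and Rat506, while the 5 Air bulbs of 1 h had 4.04 to 4.78. Isg15 was 9.03 in Rat508 against 6.67, 5.63 and 6.12 in the other PH3 rats and 5.34 to 6.09 in Air. Rat508 was thus far above the rest, and the other 3 PH3 rats overlapped Air in both genes.

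Rat508 had the highest level of all 33 bulbs in 29 of the 35 genes. Its values were a median of 1.27 above the Air mean of 1 h, against 0.10 for the other 3 PH3 rats. The excess was 4.26 for Cxcl10, 3.30 for Isg15, 3.27 for Mx1 and 3.11 for Ifit3. The genes in which it was not the highest were Ifit1, Isg20, Oas1b, Cxcl9, Bst2 and Sp100. Its truncation index, 0.542, lay within the Air range of that time (0.443 to 0.588). Other tissues of this rat number were not analysed here.

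**Figure D2:**
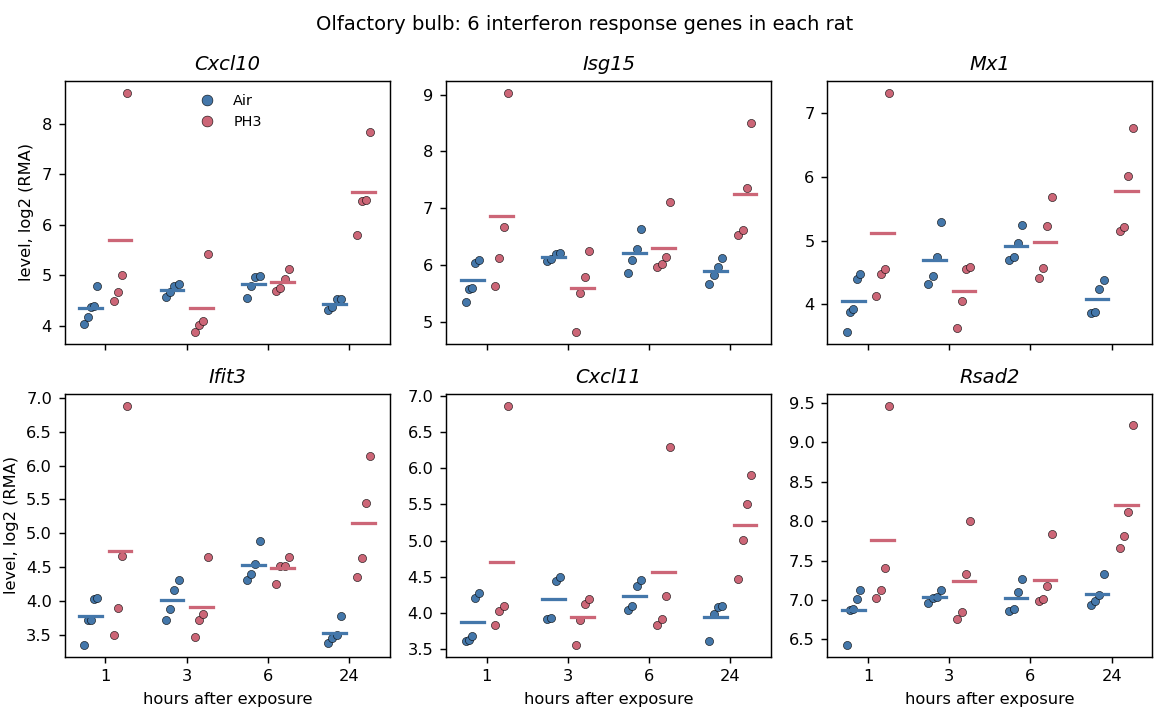
Levels (log2, RMA) of 6 genes in each olfactory bulb at 1, 3, 6 and 24 h after exposure, with Air in blue, PH3 in red and horizontal lines at group means (4 rats, and 5 for Air at 1 h). The 6 genes are those with the widest range over the 33 bulbs. One PH3 rat, Rat508, lies far above the others at 1 h, and the 4 PH3 rats of 24 h lie above the 4 Air rats in all 6 genes.

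Between these times the bulb showed no such pattern. At 3 h, 27 of the 35 genes were lower in PH3, with a median of -0.15, and at 6 h 25 were higher, with a median of 0.09. Without PH3 Rat399 or PH3 Rat512 the median at 3 h was -0.23 or -0.08, and the median at 6 h ranged from 0.029 (without PH3 Rat522) to 0.16 (without PH3 Rat387). None was called at either time (0% of all probe sets at both), none was higher at an unadjusted p under 0.05 (4.4% and 4.3% of all probe sets at 3 and 6 h), and in none did all PH3 bulbs lie above all Air bulbs (3.24% and 1.4%). Single rats stood out in single genes: PH3 Rat399 had 5.43 for Cxcl10 at 3 h against 3.88 to 4.09 in the other 3, and PH3 Rat391 had 6.29 for Cxcl11 and 9.68 for Bst2 at 6 h, where the other PH3 rats had 3.83 to 4.23 and 7.16 to 7.91. Marker lists also had single high arrays at these times: the PH3 bulbs of 3 h reached 7.02 in neutrophil markers and 6.56 in red cell markers (Air at most 4.05 in both), and those of 6 h reached 10.4 in olfactory epithelium markers (Air at most 8.44). Their part in these values was not tested. The effect was not called as different between the 4 times in any of the 35 genes (smallest adjusted p = 0.702 in limma's F test, 9 of 35 at an unadjusted p under 0.05, 0% of all probe sets called), although Cxcl10 was called with the replicate block, as were 0.11% of all probe sets.

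Other parts of the interferon pathway in the bulb were read from lists. Interferons and their receptors were higher at 24 h in 4 of 9 measured genes with a median of -0.04, and kinases, transducers and inhibitors in 4 of 11 with a median of -0.04. Of 28 further interferon targets 24 were higher, by a median of 0.26. At an unadjusted p under 0.05, 6 of the 28 were higher, as were 2.03% of all probe sets. None of the genes of these lists was called at 24 h, but neither was any other probe set (0% of 31042). The mean level of the further targets was 6.20 to 6.69 in the PH3 bulbs and 6.06 to 6.14 in Air, so their groups did not overlap either.

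Markers of immune cells that could carry such RNA were compared in the same bulbs. At 24 h the mean of 8 T cell markers was 3.49 to 3.58 in PH3 and 3.44 to 3.66 in Air, that of 5 NK cell markers 3.45 to 3.64 and 3.41 to 3.55, and that of 4 B cell markers 3.17 to 3.47 and 3.09 to 3.41. The mean of 7 monocyte and macrophage markers was 6.18 to 6.38 and 6.11 to 6.31, and the microglia mean 6.69 to 6.77 and 6.56 to 6.75. Dendritic cell markers had 3.47 to 3.53 and 3.38 to 3.51, and the 7 neutrophil markers differed by a median of 0.06. Each of these ranges overlapped between the groups, and no marker of these lists was called at 1 or 24 h. Of all probe sets 0.00322% were called at 1 h and 0% at 24 h, so the lack of calls says little about these markers. The T, NK, B and dendritic cell means, 3.09 to 3.66, were also low on the log2 scale. The part of such cells in the 24 h values was not tested. The mean of 4 choroid plexus and meninges markers ranged from 5.93 to 8.85 in the PH3 bulbs of 1 h and from 5.82 to 7.32 in Air, and its part in the values of that time was not tested.

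Outside the bulb, 1 of the 35 genes was called in 1 of 20 comparisons of PH3 with Air. Bst2, the membrane protein tetherin that holds virions at the cell surface, measured 11.55, 11.44, 11.59 and 11.38 in the PH3 lungs of 3 h and 11.83, 11.67, 11.89 and 11.86 in Air. All 4 PH3 lungs were below all 4 Air lungs, and Bst2 fell by 0.32 ± 0.0716 (adjusted p = 0.00596). In that comparison 9.89% of all probe sets were called. The truncation index also separated these groups, as given above, and with it as a covariate the adjusted p was 0.195. It was 0.084 with the groups of 3 h alone and 0.725 with the replicate block.

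Bst2 was also the gene whose effect differed between the 4 times in lung (adjusted p = 0.0406, 4.82% of all probe sets called). Its difference was -0.16 at 1 h, -0.32 at 3 h, -0.04 at 6 h and 0.12 at 24 h. This call was lost with the truncation index as a covariate, with the replicate block and in 19 of 32 fits that each left out 1 lung, among them those without any 1 of the 4 PH3 lungs of 24 h. Without Air Rat400 of 3 h the sensor Ifih1 was called in lung at 3 h as well; with all lungs its difference was 0.53 ± 0.201. In the same lungs of 3 h, 3 of 7 neutrophil markers were called higher, where 9.89% of all probe sets were called. With the truncation index as a covariate none of these 3 was called (adjusted p from 0.325 to 0.429 in limma). The mean of the 7 was 5.58 to 6.48 in PH3 and 4.62 to 5.74 in Air. The means of 8 T cell markers (6.35 to 6.72 in PH3, 5.94 to 6.30 in Air) and of 7 monocyte and macrophage markers (8.58 to 8.80 and 8.25 to 8.53) did not overlap. The truncation index separated the same groups, so its share in these marker differences cannot be told apart. The part of the markers in the Bst2 value was not tested.

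The other 5 lists of the pathway held 69 measured genes, and their calls lay in lung, kidney and heart. In lung at 1 h, 6 of the 69 fell and none rose (8.7%, against 4.24% of all probe sets). They were the receptor subunits Ifnar1 (by 0.39) and Ifnar2 (by 0.41), the kinase Tyk2 (by 0.38), the adaptor Ticam1 (by 0.48), the inhibitor Pias1 (by 0.29) and the GTPase Irgm (by 0.50). All 6 were also called with the truncation index as a covariate.

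In lung at 3 h, 5 of the 69 rose and 2 fell (10.1%, against 9.89% of all probe sets), a share near the background. Ifitm2 and Ifitm3, which block virus entry, rose by 0.51 and 0.37, Casp1 by 0.55, the nuclease Trex1 by 0.39 and the proteasome activator Psme1 by 0.31, while Rnf213 fell by 0.71 and the adaptor Mavs by 0.36. The truncation index separated these groups, and with it as a covariate 0 of the 7 were called. In kidney at 1 h, 2 of the 69 were called (2.9%, against 2.35% of all probe sets), a share near the background. The interferon-gamma receptor Ifngr1 rose by 0.41 (adjusted p = 0.00849), and Mavs fell by 0.51 (adjusted p = 0.00109). In heart at 1 h the single call was Socs3, a feedback inhibitor of cytokine receptors, which rose by 1.83 (adjusted p = 0.0263). This is 1.45% of the 69, against 0.915% of all probe sets, and 1 call is not shown to exceed the background.

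Across the 20 comparisons outside the bulb, between 0 and 7 of the 35 genes were lower and between 0 and 2 higher at an unadjusted p under 0.05. The share of all probe sets called in limma was 4.24% in lung at 1 h and 0% at 6 and 24 h. In kidney it was 2.35%, 0.303%, 0.0161% and 0% at 1, 3, 6 and 24 h, and in heart 0.915%, 0.00644%, 0% and 0.00644%. In brain stem it was 0.306%, 0.0161%, 0% and 0.00322%, and in blood 0% at each time. The single call among 35 genes in lung at 3 h and the counts of 0 elsewhere are thus not above the background.

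In kidney at 1 h Cxcl10 measured 8.54, 7.98, 7.76 and 8.75 in PH3 and 7.29, 7.76, 7.24 and 7.07 in Air. The highest Air kidney equalled the lowest PH3 kidney to 2 decimals. The difference was 0.92 ± 0.26 (adjusted p = 0.0561), where 2.35% of all probe sets were called. Cxcl10 was called without PH3 Rat351, without Air Rat352 and when the brighter probe sets alone were tested. In 6 of 8 fits that each left out 1 kidney of 1 h, none of the 35 genes was called. The calls of such refits, here and in lung below, were not set against the share of all probe sets in the same fits. The red cell markers Alas2 and Ahsp were called higher in the same kidneys, by 1.38 and 0.82, and their part in the Cxcl10 value was not tested. In lung at 1 h Ifi44, of the antiviral effectors, was lower by 0.69 ± 0.206 (adjusted p = 0.0558), where 4.24% of all probe sets were called. Ifi44 was called without PH3 Rat350 and among the brighter probe sets. In 7 of 8 fits that each left out 1 lung of 1 h, none of the 35 genes was called. With all lungs of 1 h, 7 of the 35 genes were lower at an unadjusted p under 0.05, as were 8.11% of all probe sets.

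At 6 h, 33 of the 35 genes were lower in PH3 in kidney, with a median of -0.26, and 33 of 35 in lung, with a median of -0.20. Single Air rats carried much of both: without Air Rat377, the highest of the 32 kidneys in 17 of the 35 genes, the kidney median was -0.16, and without Air Rat388 the lung median was -0.08. The lung median was also smaller without PH3 Rat381 (-0.12). In kidney 7 genes were lower at an unadjusted p under 0.05 (3.87% of all probe sets), and Mx1, Ifit2, Gbp2 and Psmb9 had all 4 PH3 rats below all 4 Air rats (2.44% of all probe sets). Mx1 measured 5.96, 5.40, 5.49 and 5.98 in the PH3 kidneys and 7.20, 6.32, 6.54 and 6.02 in Air, a difference of -0.81 ± 0.326. The groups lay next to each other without overlap, and Air Rat377 was the highest. At 24 h, 27 of the 35 genes were higher in heart, by a median of 0.19, and none was called. That median was -0.01 without PH3 Rat325 and 0.10 without Air Rat328 or Air Rat502. The heat map of all comparisons shows the olfactory bulb at 1 and 24 h as the columns with the most genes above 0.

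**Figure D3:**
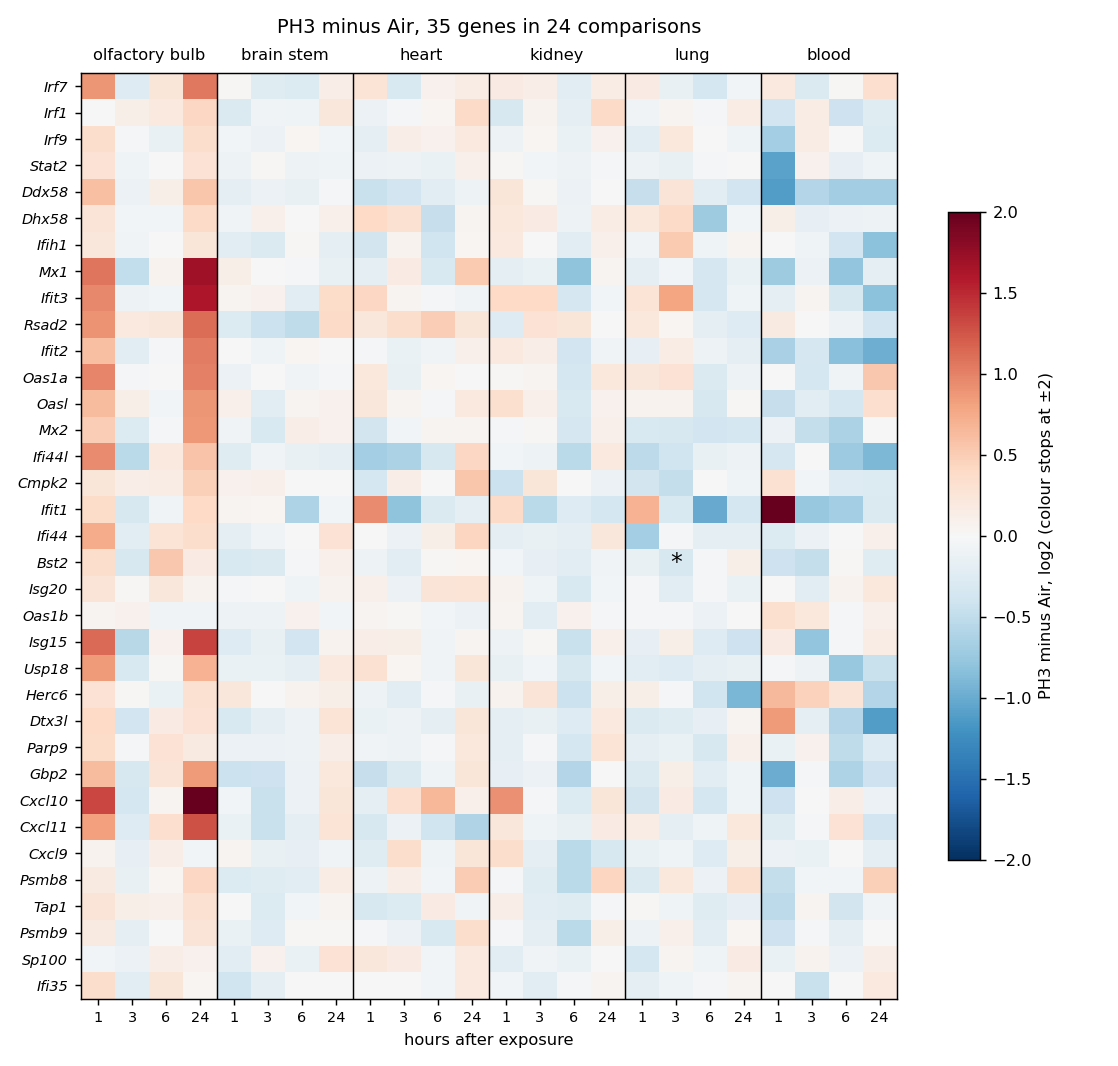
PH3 minus Air difference (log2, colour scale stopped at ±2) of 35 genes in 6 tissues at 1, 3, 6 and 24 h. The asterisk marks the call of Bst2 in lung at 3 h. Red fills the olfactory bulb columns of 1 h (34 of 35 genes above 0) and 24 h (33 of 35), and pale blue fills kidney and lung at 6 h (33 of 35 below 0 in each).

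The difference between tissues was itself tested, with the tissues treated as independent. Many rats gave several tissues, while 23 of the 33 bulb rats gave no other, so tissue and rat are not separated for the bulb. At no time was any of the 35 genes called as differing between the 6 tissues in its PH3 minus Air effect. The smallest adjusted p of a test weighted by the SE of each tissue on the limma effects of the 6 tissues was 0.0527 at 1 h, 0.466 at 3 h, 1 at 6 h and 0.602 at 24 h, and 3.09%, 0.303%, 0.00644% and 0% of all probe sets were called at these times. At an unadjusted p under 0.05 there were 8, 0, 2 and 7 of the 35 genes. At 1 h, 23 of 49 fits that each left out 1 array called 1 to 4 genes, with 4 (Stat2, Ifi44, Ddx58 and Cxcl10) without PH3 Rat351 of blood or PH3 Rat506 of olfactory bulb. These counts were not set against the share of all probe sets in the same fits, and are not shown to exceed the background. The 24 h pattern of the bulb is therefore not shown to differ from the other tissues. With the replicate block Cxcl10, Rsad2 and Ifit2 were called at 24 h, as were 2.9% of all probe sets.

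The effect was not called as different between times in blood, brain stem, heart or kidney in any of the 35 genes (1, 2, 1 and 5 at an unadjusted p under 0.05, and 0%, 0.0709%, 0.116% and 0.49% of all probe sets called). The Air level alone differed between times for the sensor Ifih1 in brain stem (adjusted p = 0.0418, 7.8% of all probe sets) and for Ifih1 and the immunoproteasome subunit Psmb9 in lung (smallest adjusted p = 0.01, 12.2%). Ifih1 in Air lungs was 4.49 to 5.56 at 3 h and 5.58 to 6.38 at the other times, so that the group of 3 h lay below the others. The truncation index of these Air lungs was 0.343 to 0.521 at 3 h, 0.154 to 0.363 at 1 h, 0.118 to 0.236 at 6 h and 0.078 to 0.180 at 24 h. With the index as a covariate none of the 35 was called in lung or brain stem, and with the replicate block Dhx58 alone was called in lung and none in brain stem. The brain stem call was lost in 10 of 16 fits that each left out 1 Air array, and that of Ifih1 in lung without Air Rat355 or Air Rat365 of 3 h. None of the 35 was called in this test in blood, heart, kidney or olfactory bulb (1, 1, 2 and 0 at an unadjusted p under 0.05, and 0%, 0.548%, 0.00322% and 1.39% of all probe sets called).

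In Air rats the genes were lowest in the nervous tissues. Of the 35 genes, 22 had their lowest Air mean in brain stem and 10 in olfactory bulb, while 16 were highest in blood and 15 in lung. Among the 5 solid tissues lung was highest in 28. It is not stated which arrays were normalised together, so the order of tissues is a description. Ranked among all probe sets of a tissue, the median of the 35 stood at the 90.0th percentile in blood, the 76.4th in lung, the 65.8th in heart, the 61.3rd in kidney, the 50.8th in olfactory bulb and the 47.5th in brain stem.

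Single genes departed from this order. Cxcl11 was 9.05 ± 0.396 (SD, 16 Air rats) in heart and 8.31 in kidney but 3.60 in lung. Cxcl10 was highest in kidney, 7.49, and 5.13 or less elsewhere. Isg20, an exonuclease of RNA, was 10.7 ± 0.183 (SD, 15 rats) in blood, 7.40 in lung and 4.81 or less in the other 4 tissues. Rsad2 was 12.5 in blood and 8.66 or less in the other tissues, and Irf7 was 12.0 in blood and 8.78 or less elsewhere.

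Ifit1, a protein that binds viral RNA caps, had the largest difference in blood at 1 h, 2.29 ± 1.25 (adjusted p = 0.655), and its values split into separate levels within both exposures. In the 31 blood samples the level was 6.69 or less in 13 rats and 8.33 or more in 18, with none between. Both exposures had both kinds: 6 of 15 Air rats and 7 of 16 PH3 rats were below the gap. In blood at 1 h, 2 of 4 Air rats and 0 of 4 PH3 rats were below it, and at 6 h 2 of 4 and 3 of 4 were.

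The same rats were low in lung and kidney. In lung the 13 rats below the gap in blood had 3.11 to 3.81 and the 18 above it 4.58 to 6.40. In kidney the 11 of the former that were measured had 2.73 to 3.42 and the 18 of the latter 3.69 to 4.75. Neither tissue showed an overlap, whereas in heart (2.91 to 5.25 and 3.96 to 5.62) and brain stem (2.54 to 3.42 and 2.99 to 3.79) the ranges overlapped. They also overlapped in olfactory bulb, where 4 rats of each kind were measured (2.94 to 3.27 and 3.17 to 3.92). Over all 35 genes and 6 tissues, Ifit1 in blood and in lung had the 2 widest gaps with at least 5 arrays on each side, 1.64 and 0.77. The next was 0.51, of Cxcl11 in olfactory bulb. The gap was looked for after the blood values were seen, and its cause was not tested. Differences of Ifit1 between exposures, among them 0.94 in heart at 1 h and -1.01 in lung at 6 h, are thus read with the number of low rats in each group in view.

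**Figure D4:**
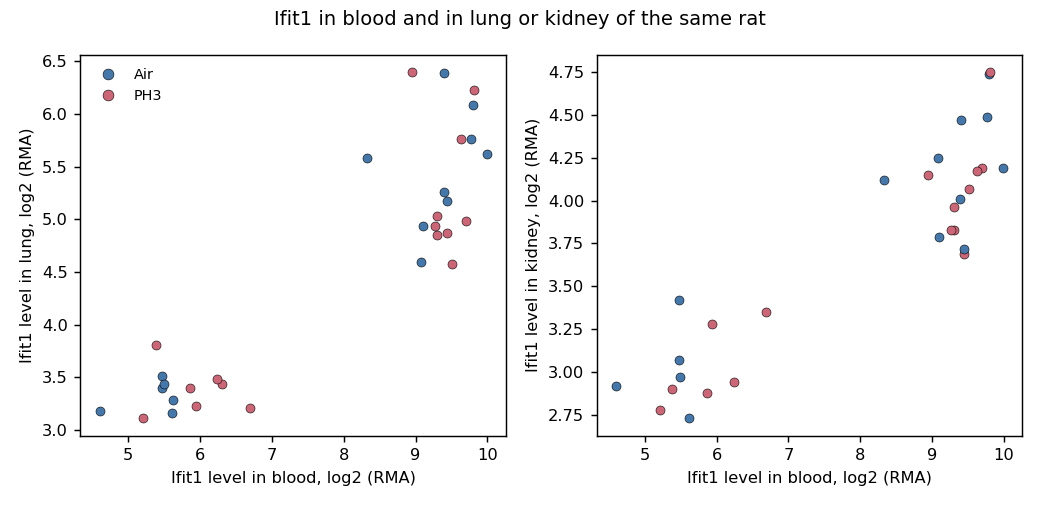
Ifit1 level (log2, RMA) in blood against lung (left) and kidney (right) of the same rat, with 1 point for each rat, Air in blue and PH3 in red. The points form 2 separate clouds, and both hold Air and PH3 rats.

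In blood at 1 h, the next members by size of difference were a sensor and a transcription factor. Of the 35 genes, 25 were lower in PH3 and 7 were lower at an unadjusted p under 0.05, against 5.41% of all probe sets. Ddx58 measured 3.98, 3.55, 4.90 and 4.15 in PH3 and 4.43, 6.07, 5.65 and 4.90 in Air, a difference of -1.12 ± 0.473. Stat2, a subunit of the ISRE-binding complex, measured 6.32, 7.58, 7.65 and 7.33 against 8.35, 8.31, 8.11 and 8.38, a difference of -1.07 ± 0.275 (adjusted p = 0.229). All PH3 values of Stat2 were below Air, and Ddx58 overlapped. With the replicate block 6 of the 35 genes were called in blood at 1 h, and 19.4% of all probe sets were, so that the count is not above the background.

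A score for each array, the median over the 35 genes of its level minus the Air mean of the tissue, shows how the rats of a group compare. It was 1.26 in the bulb of Rat508 and 0.88, 0.14, 0.47 and 0.31 in the PH3 bulbs of 24 h from Rat475, Rat476, Rat488 and Rat489. The 17 Air bulbs had -0.23 to 0.24. Rat508, Rat475, Rat488 and Rat489 had the 4 highest scores of the 33 bulbs.

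In the other tissues high scores occurred in both exposures and went with the rat in some cases. Of 28 rats with brain stem, heart, kidney and lung all measured, 3 were above the Air mean in all 4, 7 were below in all 4 and 18 were mixed. The 3 were PH3 Rat325 of 24 h (0.28, 0.45, 0.31 and 0.49 in brain stem, heart, kidney and lung), Air Rat335 of 24 h (0.07, 0.15, 0.24 and 0.37) and Air Rat352 of 1 h (0.09, 0.20, 0.22 and 0.12). High values in several organs at once were thus present in Air rats too. The 23 rats that gave an olfactory bulb and no other tissue include Rat508 and the PH3 rats of 24 h, so their other organs were not analysed here.

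**Figure D5:**
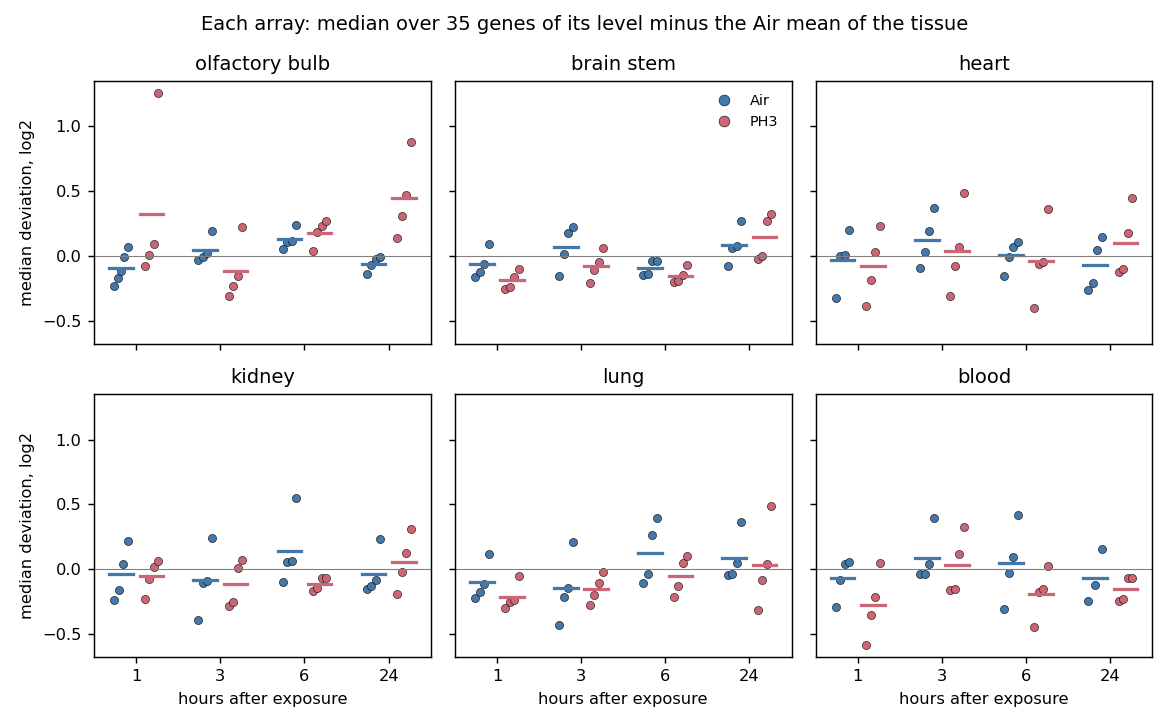
Score of each array (median over 35 genes of its log2 level minus the mean of the Air arrays of that tissue) by tissue and hours after exposure, Air in blue and PH3 in red, with lines at group means. The bulb of PH3 Rat508 at 1 h has the highest score, 1.26, followed by that of PH3 Rat475 at 24 h, 0.88. The groups separate in the bulb at 24 h and overlap in every other tissue and time.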

How the data were processed

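The authors deposited log2 expression values of Affymetrix arrays, made with RMA and Partek per the submitters' processing notes, with versions, background settings and the arrays normalised together not given in the sources used here. Of 31139 probe sets 97 controls were left out. Genes were named from the platform annotation (19063 probe sets with 1 gene, 572 with several, not used). Each tissue was fitted with limma 3.58.1 in R 4.3.3 (lmFit, eBayes, 8 groups), two-sided, with Benjamini-Hochberg adjustment over 31042 probe sets at 0.05; the code was tested on simulated data. P-values measure the spread between rats. Rat numbers name the same animal in several tissues, never an Air and PH3 pair (correlation of a rat's tissues 0.0168). Named were called genes, the 2 largest differences per comparison, the 6 widest ranges in the olfactory bulb, Air levels of any gene and up to 4 called genes of other pathway lists per comparison; others are named for a count of 5 or fewer or after their values were seen. The genes and lists were chosen with earlier results of these data known. Alternatives were array centring, a filter on dim probe sets, single-time fits, the variance prior, the truncation index as covariate, 1 probe set per gene throughout, the rat as block and leaving out each array.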

Additional observations from a re-analysis of the deposited data

Results flagged for a closer look

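In groups of 4 or 5 rats, 95 sets of values were examined for a single rat far from the others (47 of array scores and 48 of the 6 widest-ranging genes in the olfactory bulb), and 8 met Dixon's 95% criterion. Its rate of about 1 in 20 by chance does not apply to the 48, whose genes were chosen for a range that Rat508 helped to set. The score is a median over 35 genes that include these 6, so hits of the same rat are not separate results. PH3 Rat508 accounts for 5 of the 8 in the olfactory bulb of 1 h: its score of 1.26 and its levels of Cxcl10 (8.61), Mx1 (7.32), Cxcl11 (6.86) and Rsad2 (9.46) were each far above the other 3 PH3 rats. The remaining 3 were PH3 Rat399 at 3 h for Cxcl10 (5.43), PH3 Rat522 at 6 h for Isg15 (7.10) and PH3 Rat391 at 6 h for Cxcl11 (6.29), each the highest of its group. The effect on Bst2 in lung differed between the 4 times (adjusted p = 0.0406, limma F test).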

How the results depend on the processing

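Of 40 counts of called genes, 26 stayed the same under every alternative run, and these were all counts of 0. Each count above 0 (lung at 3 h, effects over times in lung, Air over times in brain stem and lung) changed under some alternative. Of 24 median differences 21 stayed within their spread, but several changed sign without 1 array. Examples are heart at 24 h (0.19 to -0.012) and lung at 24 h (-0.081 to 0.085). No gene followed singly (Bst2 in lung at 3 h, the 6 widest-ranging genes in the bulb at 1 and 24 h) reversed its direction. The rat as a replicate block over all tissues pools their spread. With it the count of called genes was 6 in blood at 1 h (19.4% of all probe sets called) and 3 in blood at 24 h. It was 0 in lung at 3 h and 2 in olfactory bulb at 24 h (0.00966% of all probe sets). For effects that differ between times it was 4 in blood, 0 in lung and 1 in olfactory bulb (0.11% of all probe sets). For Air levels between times it was 5 in blood, 0 in brain stem and 1 in lung. For effects between tissues it was 5 at 1 h and 3 at 24 h (2.9% of all probe sets). Counts without a share beside them were not set against the background, so they are not shown to exceed it. The block changed no other count by over 1.5 times. With the truncation index as covariate the count was 0 in lung at 3 h, 0 for effects over times in lung, 0 for Air over times in brain stem and in lung, and 2 between tissues at 1 h. Among the brighter 50 percent of probe sets it was 1 in kidney and in lung at 1 h and 0 for Air over times in brain stem. The groups of 3 h alone gave 0 in lung, array centring gave 1 and the robust variance prior 2 between tissues at 1 h. Added after the values were seen, leaving out PH3 Rat508 gave 3 in olfactory bulb at 24 h, and Air bulbs of all times as controls moved the median at 6 h to 0.23. Leaving out 1 array in turn gave 0 to 1 in kidney and lung at 1 h, 1 to 2 in lung at 3 h, 0 in olfactory bulb at 24 h, or 1 to 4 with Rat508 out as well, 0 to 1 for Air over times in brain stem and effects over times in lung, 1 to 3 for Air over times in lung (1 without Air Rat355 or Air Rat365 of 3 h) and 0 to 4 between tissues at 1 h. The median in blood ranged from -0.38 (without Air Rat345) to -0.095 at 1 h and from -0.26 to -0.033 (without Air Rat335) at 24 h. In each case the cause was not tested. The number of rats and the signal of dim probe sets limit what can be called.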
